A study of Mus musculus with 9 samples.

Results

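The genes of the cadherin and protocadherin families other than Cdh5 were followed in RNA-seq libraries of mouse cells carrying S100A8 overexpression constructs or their control. The members were all genes whose symbol is Cdh with a number, or begins with Pcdh, with Cdh5 left out. This gave 88 of the 19240 genes in the expression table. They comprised 22 Cdh genes, 12 protocadherins outside the gene clusters, and 11 Pcdha, 22 Pcdhb and 21 Pcdhg genes of the 3 protocadherin clusters. The question was how many of these adhesion genes the cells expressed and whether their levels differed when a single residue of S100A8 was mutated. S100A8 belongs to the S100 family of calcium binders and is abundant in myeloid cells. There were 9 libraries in 3 groups of 3: an overexpression control (OEA8_Ctrl), S100A8 with a point mutation at residue 67 (OEA8_67) and S100A8 with a point mutation at residue 69 (OEA8_69). Whether OEA8_Ctrl carried unmutated S100A8, which is how the study describes its reference cells, is not in the labels, which also give no strain, age or sex. The labels name hematopoietic stem cells as the source, whereas the study describes lentivirus-infected mouse embryonic fibroblasts for this experiment. Separate cultures are not stated for the replicates either. The p-values therefore reflect the spread among these libraries alone, and that spread may be technical.

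Cadherins are transmembrane proteins whose extracellular repeats bind calcium and, in most members, the same cadherin on a neighbouring cell. The cytoplasmic tail of a classical cadherin binds catenins, which link the junction to actin. Mesenchymal cells such as fibroblasts are known for N-cadherin (Cdh2) and cadherin-11, and epithelia for E-cadherin (Cdh1). The clustered protocadherins are best known from neurons, where each cell uses a subset of promoters in a tandem array. In the alpha and gamma arrays each variable first exon is spliced to the same constant exons, while most beta genes consist of a single coding exon.

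Expression is given as FPKM, that is, fragments per kilobase of transcript relative to all mapped fragments. Each library held 15800 to 16179 genes above 0, and its FPKM summed to 469909 at the least and 501342 at the most. Read depth is not known from such values, so no interval for counting error is given. S100a8 itself was at 4.10, 3.98 and 6.0 FPKM in OEA8_Ctrl, 5.95, 4.54 and 6.24 in OEA8_67 and 3.75, 6.24 and 5.44 in OEA8_69. Its libraries overlapped between all groups, and the level does not distinguish the constructs. All 10 fibroblast markers examined, such as Col1a1 and Pdgfra, averaged above 1 FPKM over the 9 libraries. Of 10 blood stem and progenitor markers, Hlf, Cd34, Ly6a and Gata2 averaged above 1 FPKM and the other 6, Ptprc and Kit among them, were below. The labelled cell type was therefore not borne out by its markers, and the samples are called by their group names here.

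Of the 88 genes, 41 averaged 0.5 FPKM or more over the 9 libraries, the minimum used for testing. An average of 1 FPKM was reached by 32 genes, 5 FPKM by 14 and 10 FPKM by 8. The remaining 47 genes were below the minimum, with 39 of them under 0.1 FPKM and 4 listed at 0 in every library. The last tested gene was Pcdhgb5 at 0.504 FPKM, and the first below the minimum was Cdh6 at 0.433 FPKM. Expression was unevenly spread over the classes. The tested genes were 7 of 22 Cdh genes, 5 of 12 non-clustered protocadherins, 0 of 11 Pcdha, 10 of 22 Pcdhb and 19 of 21 Pcdhg genes.

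A small number of genes held most of the signal. Cdh11, the mesenchymal cadherin also known as OB-cadherin, made up 27.8% of the summed FPKM of the 88 genes, and Pcdhgc3, a C-type gamma protocadherin, 23.8%. Pcdh7 followed with 9.65%, Cdh13 with 6.24% and Cdh2 with 4.24%. Cdh11 alone held 70.2% of the FPKM of the Cdh class and Pcdhgc3 held 57.8% of that of the Pcdhg class. The summed level of all 88 genes was 461 ± 22.1 FPKM (SD, n = 3) in OEA8_Ctrl, 482 ± 5.44 in OEA8_67 and 481 ± 11.6 in OEA8_69, and its lowest library, 437 FPKM, was replicate 3 of OEA8_Ctrl. That library also had the largest sum of FPKM over all genes.

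**Figure D1:**
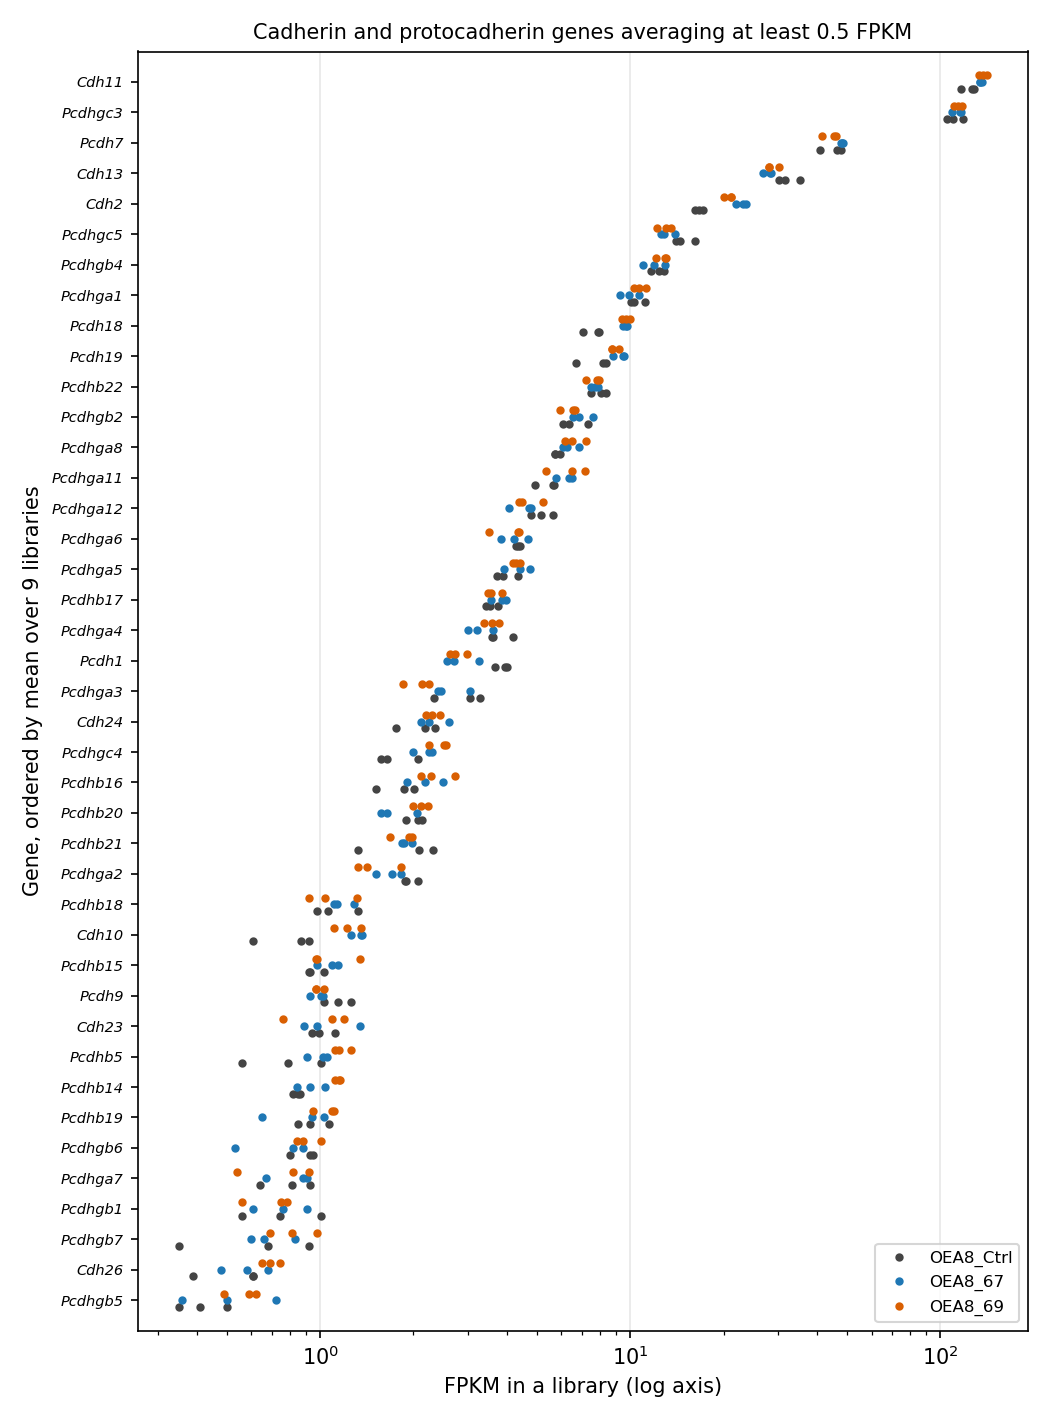
FPKM (log axis) of the 41 genes averaging at least 0.5 FPKM, ordered by mean. Each point is a library, coloured by group. Cdh11 and Pcdhgc3 lie above 100 FPKM in all 9 libraries, and in most rows the 3 groups overlap.

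The cadherins that define epithelium and muscle progenitors were at or near 0. Cdh1 (E-cadherin) did not exceed 0.03 FPKM in any library. Cdh15 (M-cadherin, of muscle progenitors) was 0.02 FPKM in replicate 1 of OEA8_Ctrl and listed at 0 in the other 8 libraries. Cdh3 (P-cadherin) was low but present, between 0.22 and 0.45 FPKM. Of the 9 epithelial markers, which include Cdh1, 0 reached 1 FPKM, and the muscle progenitor genes Myod1 and Myog were listed at 0 throughout.

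The 3 protocadherin clusters, which lie side by side on chromosome 18, were used differently. The alpha genes were close to 0. Their highest member, Pcdhac2, averaged 0.199 FPKM, and Pcdha1, Pcdha4 and Pcdha8 were listed at 0. In the beta cluster the level differed along the array. Only Pcdhb5 of the 13 genes from Pcdhb1 to Pcdhb13 reached 0.5 FPKM, whereas all 9 genes from Pcdhb14 to Pcdhb22 did. The median level was 0.0878 FPKM in the former stretch and 1.89 FPKM in the latter, a division drawn after the values were seen. Pcdhb22, the last gene of the array, was the highest at 7.75 FPKM, followed by Pcdhb17 at 3.66 FPKM. Spearman's rho between the order in the array and the mean level was 0.766 over the 22 beta genes and 0.823 over the 11 alpha genes, and 0.0688 over the 21 gamma genes. These are descriptions across neighbouring genes measured in the same libraries. The alpha value ranks levels at or near 0, as 10 of the 11 alpha genes averaged under 0.1 FPKM, so it shows little about the array.

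Gamma genes were expressed along the whole array, and only Pcdhga9 (0.110 FPKM) and Pcdhga10 (0.0578 FPKM) stayed below 0.5 FPKM. After Pcdhgc3 the highest were Pcdhgc5 (13.7 FPKM), Pcdhgb4 (12.3 FPKM) and Pcdhga1 (10.4 FPKM). The annotated gamma genes share between 41.7% and 45.5% of their exonic bases with another gene of the array. For 10 alpha genes, all but Pcdha10, the shared part was between 48.6% and 54.9%. Reads from these constant exons can be divided among the genes only by estimation, so single alpha and gamma values are uncertain. For beta genes the shared part was between 0% and 9.67%, with a median of 0%.

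**Figure D2:**
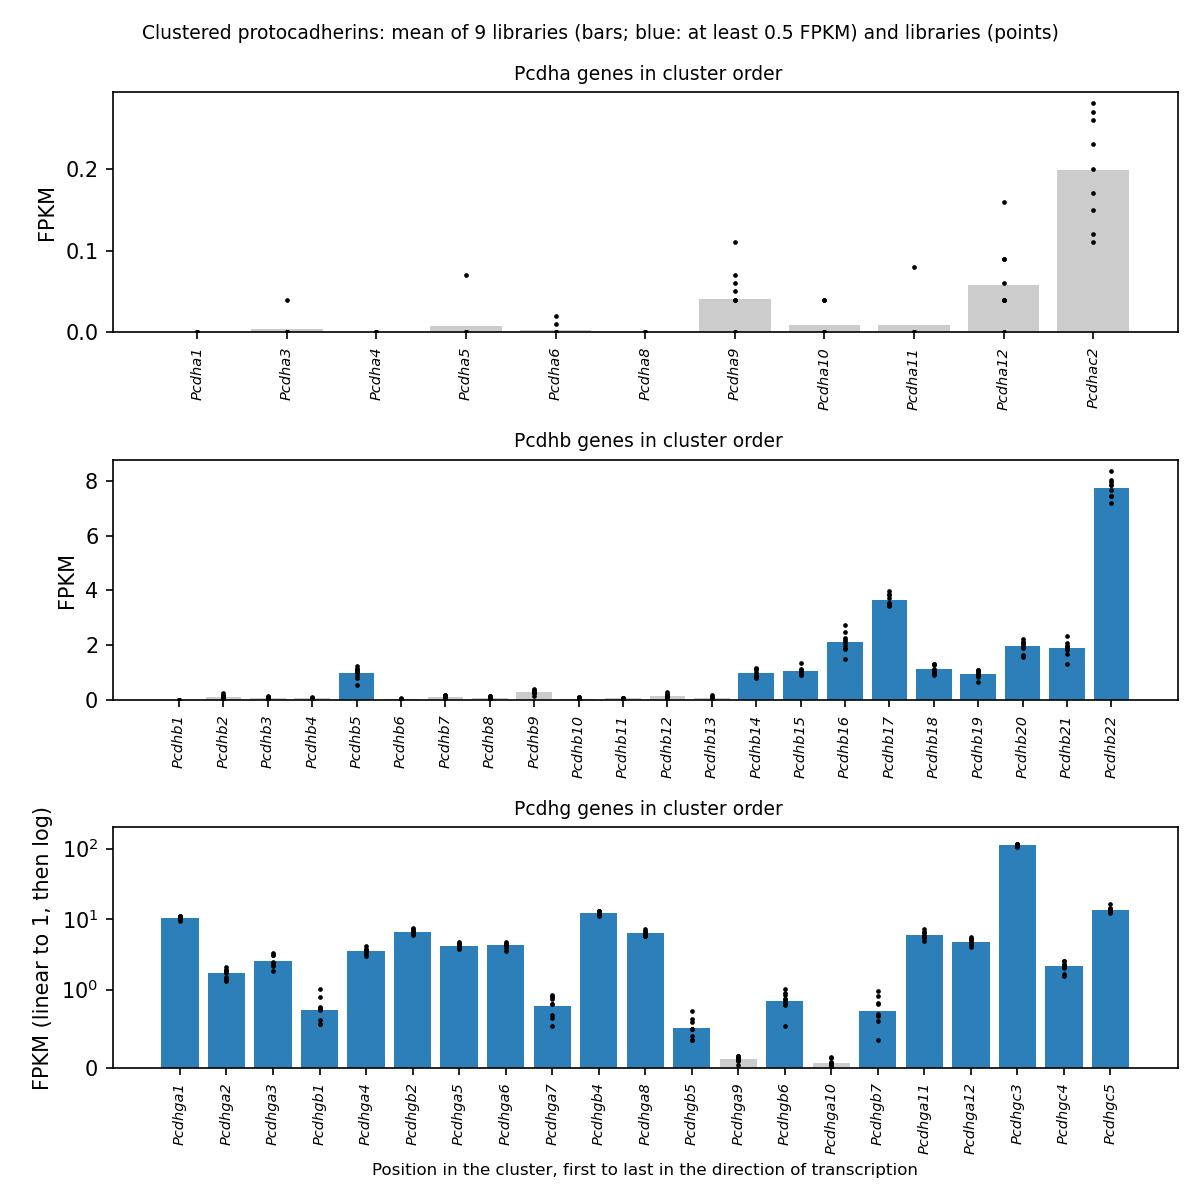
Mean FPKM over 9 libraries (bars) and each library (points) for the Pcdha, Pcdhb and Pcdhg genes in cluster order, with genes of at least 0.5 FPKM in blue. The gamma axis is linear up to 1 FPKM and logarithmic above. Beta genes from Pcdhb14 onward are all expressed, and the alpha genes are all below 0.5 FPKM.

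Each mutant group was next compared with OEA8_Ctrl, using limma on log2(FPKM + 1) with Benjamini-Hochberg adjustment over all 12012 genes that reached 0.5 FPKM. A gene was called at an adjusted p under 0.05. On this scale the change of low genes is understated, so percent changes of the mean FPKM are given as well. The 2 comparisons share the OEA8_Ctrl libraries. In these bulk samples, fewer cells of a type and less RNA per cell cannot be told apart.

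In OEA8_67, Cdh2, Cdh10 and Pcdh18 rose and Pcdh1 and Cdh13 fell. These 5 calls were 12.2% of the 41 genes tested, against 7.88% of all genes. By direction 3 were higher (3.21% of all genes were) and 2 lower (4.66% of all genes were). By class the calls were 3 of 7 Cdh genes, 2 of 5 non-clustered protocadherins, 0 of 10 Pcdhb and 0 of 19 Pcdhg genes. Values of the 2 groups were fully separated, without overlap of libraries, for 13 of the 41 genes, against 28.2% of all genes, with 8 higher (16.5% of all genes) and 5 lower (11.7% of all genes). The median log2 fold change of the 41 genes was 0.0383, against 0.0176 over all genes. The count of calls depended on single libraries: it was 3 without replicate 1 of OEA8_Ctrl, without replicate 1 of OEA8_67 or without replicate 2 of OEA8_67, and 2 without replicate 3 of OEA8_67. Of the lower genes, 0 were left when replicate 1 of OEA8_Ctrl, or 1 or 3 of OEA8_67, was omitted, and 1 without any other library except replicate 2 of OEA8_Ctrl.

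In OEA8_69, Cdh2, Cdh10, Pcdh18 and Pcdhgc4 rose and Pcdh1 fell. These were again 5 of the 41 genes (12.2%), against 9.79% of all genes, with 4 higher (4.55% of all genes) and 1 lower (5.24% of all genes). The classes held 2 of 7 Cdh genes, 2 of 5 non-clustered protocadherins, 0 of 10 Pcdhb and 1 of 19 Pcdhg genes. The groups did not overlap for 15 of the 41 genes, against 27.5% of all genes, with 11 higher (15.4% of all genes) and 4 lower (12% of all genes). The median log2 fold change was 0.0378, against 0.0212 over all genes. With each library left out the count ranged from 3 to 5, and it was 3 without replicate 2 of OEA8_69. When replicate 2 of either OEA8_Ctrl or OEA8_69 was left out, 2 genes were called higher. When replicate 2 of OEA8_Ctrl, replicate 3 of that group or replicate 3 of OEA8_69 was left out, 2 were called lower. Thus 6 genes were called in at least 1 comparison, and 35 of the 41 tested genes in none.

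Cdh2 encodes N-cadherin, a classical cadherin of neural, muscle and mesenchymal cells, and had the smallest adjusted p of the family in both comparisons. It measured 17.20, 16.70 and 16.20 FPKM in OEA8_Ctrl, 21.93, 23.67 and 23.12 in OEA8_67 and 20.02, 21.17 and 21.10 in OEA8_69. All 6 mutant libraries lay above the 3 controls, and the 2 mutant groups did not overlap either. The mean was 37.2% higher in OEA8_67 (log2 fold change 0.43 ± 0.05, SE, adjusted p = 0.000126) and 24.3% higher in OEA8_69 (0.30 ± 0.05, adjusted p = 0.00166). The difference between the mutants was -0.14 on the log2 scale (95% confidence interval -0.24 to -0.03) and did not pass the test, with an adjusted p of 0.141 in limma. Cdh2 was called in both comparisons in every alternative fit and with each library left out.

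Pcdh18 encodes a non-clustered protocadherin of the delta group. Its level was 7.88, 7.95 and 7.02 FPKM in OEA8_Ctrl, 9.67, 9.78 and 9.45 in OEA8_67 and 9.99, 9.43 and 9.67 in OEA8_69. The mutant groups lay on top of each other and above every control library. The increases were 26.5% in OEA8_67 (log2 fold change 0.31 ± 0.06, limma adjusted p = 0.00608) and 27.3% in OEA8_69 (0.31 ± 0.06, adjusted p = 0.00390). As for Cdh2, both calls were kept in every alternative fit and with each library left out.

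Cdh10, a type II cadherin known mainly from brain, was a low gene of the tested set. It measured 0.87, 0.61 and 0.92 FPKM in OEA8_Ctrl, 1.26, 1.35 and 1.37 in OEA8_67 and 1.35, 1.22 and 1.11 in OEA8_69. All mutant libraries were above the controls. The mean was 65.8% higher in OEA8_67 (log2 fold change 0.37 ± 0.08, limma adjusted p = 0.0172) and 53.3% higher in OEA8_69 (0.31 ± 0.08, adjusted p = 0.0341). Leaving out replicate 2 or 3 of OEA8_67 ended the OEA8_67 call (adjusted p = 0.0674 and 0.0648). The OEA8_69 call was lost without 6 of the 9 libraries in turn, namely replicates 1 and 2 of OEA8_Ctrl, 2 and 3 of OEA8_67 and 1 and 2 of OEA8_69, with adjusted p between 0.0509 and 0.129.

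Pcdh1, a protocadherin expressed in epithelial and endothelial cells among others, was the gene that fell in both comparisons. It measured 3.95, 4.0 and 3.65 FPKM in OEA8_Ctrl, 2.56, 3.26 and 2.70 in OEA8_67 and 2.97, 2.62 and 2.72 in OEA8_69. Every mutant library was below every control. The mean fell by 26.6% in OEA8_67 (log2 fold change -0.35 ± 0.08, limma adjusted p = 0.0186) and by 28.4% in OEA8_69 (-0.37 ± 0.08, adjusted p = 0.0101). The OEA8_67 call was lost without replicate 1 of OEA8_Ctrl, replicate 1 of OEA8_67 or replicate 3 of OEA8_67 (adjusted p = 0.0603, 0.0738 and 0.0746), and the OEA8_69 call was kept with each library left out.

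Cdh13 and Pcdhgc4 were each called in 1 comparison. Cdh13 encodes T-cadherin, which lacks a transmembrane and cytoplasmic part and is held in the membrane by a lipid anchor. It measured 35.23, 30.17 and 31.60 FPKM in OEA8_Ctrl, 28.36, 26.70 and 28.27 in OEA8_67 and 30.26, 27.92 and 28.06 in OEA8_69. OEA8_67 lay below all controls and OEA8_69 overlapped them. The mean fell by 14.1% in OEA8_67 (log2 fold change -0.21 ± 0.06, limma adjusted p = 0.0491), and was 11.1% below OEA8_Ctrl in OEA8_69 (-0.16 ± 0.06, adjusted p = 0.108). Of the 9 fits with a library left out, the Cdh13 call remained only in that without replicate 2 of OEA8_Ctrl. In the others its adjusted p was between 0.0577 and 0.171.

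Pcdhgc4, a C-type gamma protocadherin with a role in neuronal survival in mice, was the clustered gene that was called. It measured 2.07, 1.57 and 1.64 FPKM in OEA8_Ctrl, 2.29, 2.25 and 1.99 in OEA8_67 and 2.25, 2.54 and 2.51 in OEA8_69. OEA8_69 was above all controls and OEA8_67 overlapped them. The mean was 38.3% higher in OEA8_69 (log2 fold change 0.32 ± 0.08, limma adjusted p = 0.0287) and 23.7% higher in OEA8_67, where the test was not passed (0.21 ± 0.08, adjusted p = 0.145). It was no longer called when replicate 2 or 3 of either OEA8_Ctrl or OEA8_69 was left out (adjusted p between 0.0536 and 0.0985). The division of reads over the shared gamma exons applies to this gene.

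**Figure D3:**
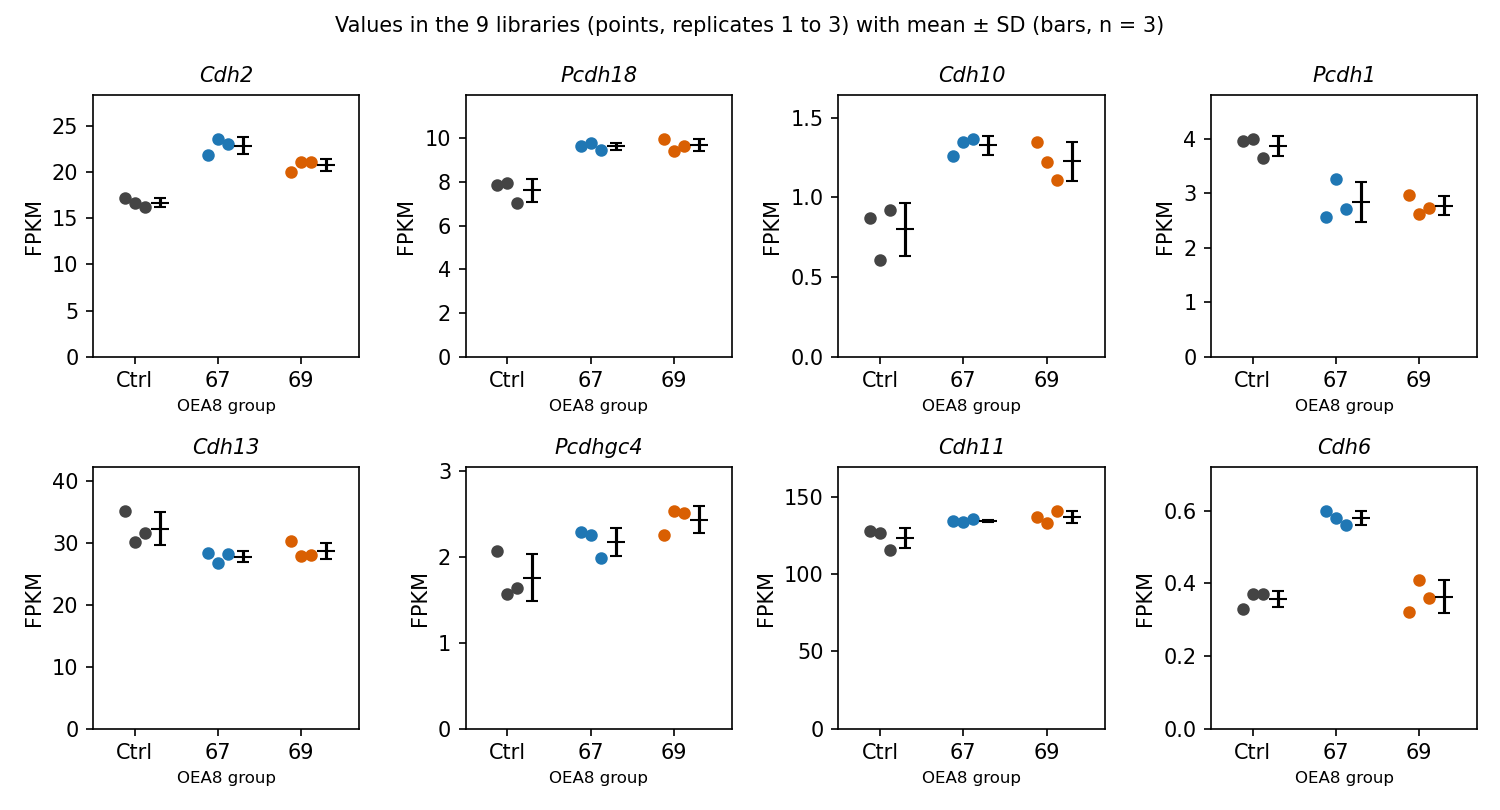
FPKM of 8 genes in the 9 libraries (points, replicates 1 to 3 from left to right in each group), with the mean ± SD of each group (bars, n = 3). Cdh2, Pcdh18 and Cdh10 are higher and Pcdh1 lower in all 6 mutant libraries than in the 3 controls.

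Because Cdh10 and Pcdh18 rose in both comparisons, the 250 bases before their RefSeq transcript starts are shown from the GRCm38.p6 assembly, 5′ to 3′ on the gene's strand. The Cdh10 window is chr15:18820079-18820328 on the plus strand. It lies inside the annotated Cdh10 span of chr15:18818869-19016206, not upstream of the whole gene. The Pcdh18 window is chr3:49757317-49757566 on the minus strand, and part of it overlaps the annotated Pcdh18 span of chr3:49743291-49757383. Capitals mark GGAA or its reverse complement TTCC, the core letters bound by ETS factors.
Cdh10: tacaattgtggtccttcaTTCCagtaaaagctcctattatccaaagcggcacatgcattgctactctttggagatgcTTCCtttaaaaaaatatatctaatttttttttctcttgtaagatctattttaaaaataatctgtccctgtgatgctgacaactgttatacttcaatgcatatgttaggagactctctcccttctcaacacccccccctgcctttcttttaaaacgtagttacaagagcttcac
Pcdh18: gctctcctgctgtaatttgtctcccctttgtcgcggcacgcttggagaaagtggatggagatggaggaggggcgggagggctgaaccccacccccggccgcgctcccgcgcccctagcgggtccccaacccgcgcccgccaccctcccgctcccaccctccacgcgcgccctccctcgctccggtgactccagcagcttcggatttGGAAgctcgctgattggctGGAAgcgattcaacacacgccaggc
Each window held 2 such cores, with first bases at -232 and -173 in Cdh10 and at -44 and -25 in Pcdh18. Positions are counted back from the transcript start used, and both Pcdh18 cores lie within the annotated Pcdh18 span. Of the 27025 genes with a window, 93.4% held at least 1. The E-box CAGGTG or its reverse complement CACCTG, the letters known for binding Snail and ZEB repressors, was not in either window and was in 17.1% of all windows. Windows were given for 22 of the 88 genes.

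The most abundant member, Cdh11, was high in every library. It measured 127.86, 126.79 and 116.07 FPKM in OEA8_Ctrl, 134.42, 134.19 and 135.67 in OEA8_67 and 137.29, 133.28 and 141.33 in OEA8_69. All mutant libraries were above the controls, but by little. The means were 9.05% and 11.1% above OEA8_Ctrl, and neither comparison passed the test (log2 fold change 0.13 ± 0.04, limma adjusted p = 0.111, and 0.15 ± 0.04, adjusted p = 0.0542). Cdh24, another type II cadherin, had values between 1.76 and 2.60 FPKM with overlapping groups, and Cdh23, a tip-link protein of inner ear hair cells, and Cdh26 did not pass either (limma adjusted p from 0.318 to 0.975 over both genes and comparisons).

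Among the other non-clustered protocadherins, Pcdh7 ranged from 41.00 to 48.67 FPKM and did not pass in either comparison (limma adjusted p = 0.312 and 0.841). Pcdh19, a delta protocadherin known in humans for a form of epilepsy, measured 8.16, 8.38 and 6.67 FPKM in OEA8_Ctrl, 9.57, 9.47 and 8.80 in OEA8_67 and 8.74, 9.18 and 8.74 in OEA8_69. Its mutant libraries were all above the controls, with log2 fold changes of 0.24 ± 0.07 (limma adjusted p = 0.0700) and 0.18 ± 0.07 (adjusted p = 0.147). Without replicate 2 of OEA8_Ctrl the OEA8_67 comparison passed, at an adjusted p of 0.0401. Pcdh9 lay between 0.93 and 1.26 FPKM and was not called.

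The abundant clustered genes showed small differences. Pcdhgc3 lay between 104.65 and 117.98 FPKM with overlapping groups, and its log2 fold changes were 0.04 ± 0.05 in both comparisons (limma adjusted p = 0.691 and 0.685, 95% confidence intervals -0.07 to 0.14 and -0.07 to 0.15). Pcdhgc5 measured 16.21, 14.45 and 14.07 FPKM in OEA8_Ctrl, 13.98, 12.60 and 12.87 in OEA8_67 and 13.00, 12.21 and 13.57 in OEA8_69. All mutant libraries were below the controls without passing the test (adjusted p = 0.130 and 0.0851), and without replicate 3 of OEA8_Ctrl the OEA8_69 comparison passed, at an adjusted p of 0.0410. Pcdhgb4, Pcdhga1 and Pcdhb22 overlapped between the groups in both comparisons. The summed Pcdhg level was 194 ± 8.60, 195 ± 6.25 and 196 ± 5.82 FPKM in OEA8_Ctrl, OEA8_67 and OEA8_69, and the summed Pcdhb level was 22.8 ± 1.54, 23.5 ± 0.318 and 24.5 ± 0.466 FPKM.

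In the GRCm38 assembly 3 of the 6 called genes are on chromosome 18. Cdh2 spans chr18:16588877-16809246, Pcdh1 chr18:38185914-38212048 and Pcdhgc4 chr18:37815079-37841873. Pcdh18 spans chr3:49743291-49757383, Cdh10 chr15:18818869-19016206 and Cdh13 chr8:118140017-119324929. Of the 41 tested genes, 31 are on chromosome 18, since the clusters are there.

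The mutants were also compared with each other. None of the 41 genes was called in limma, with 4 at an unadjusted p under 0.05, while 3.16% of all genes were called (1.89% higher and 1.27% lower in OEA8_69). Values of the mutants were fully separated for 5 genes, namely Cdh2, Pcdh7, Pcdhga3, Pcdhb5 and Pcdhb14, which is 12.2% of the 41 against 31.6% of all genes. Of these, 2 were higher in OEA8_69 (14.7% of all genes) and 3 lower (16.9% of all genes). The F test over the 3 groups called 4 genes, Cdh2, Pcdh18, Cdh10 and Pcdh1 (adjusted p = 0.000239, 0.00439, 0.0210 and 0.0130), which is 9.76% of the 41 genes against 12.1% of all genes.

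**Figure D4:**
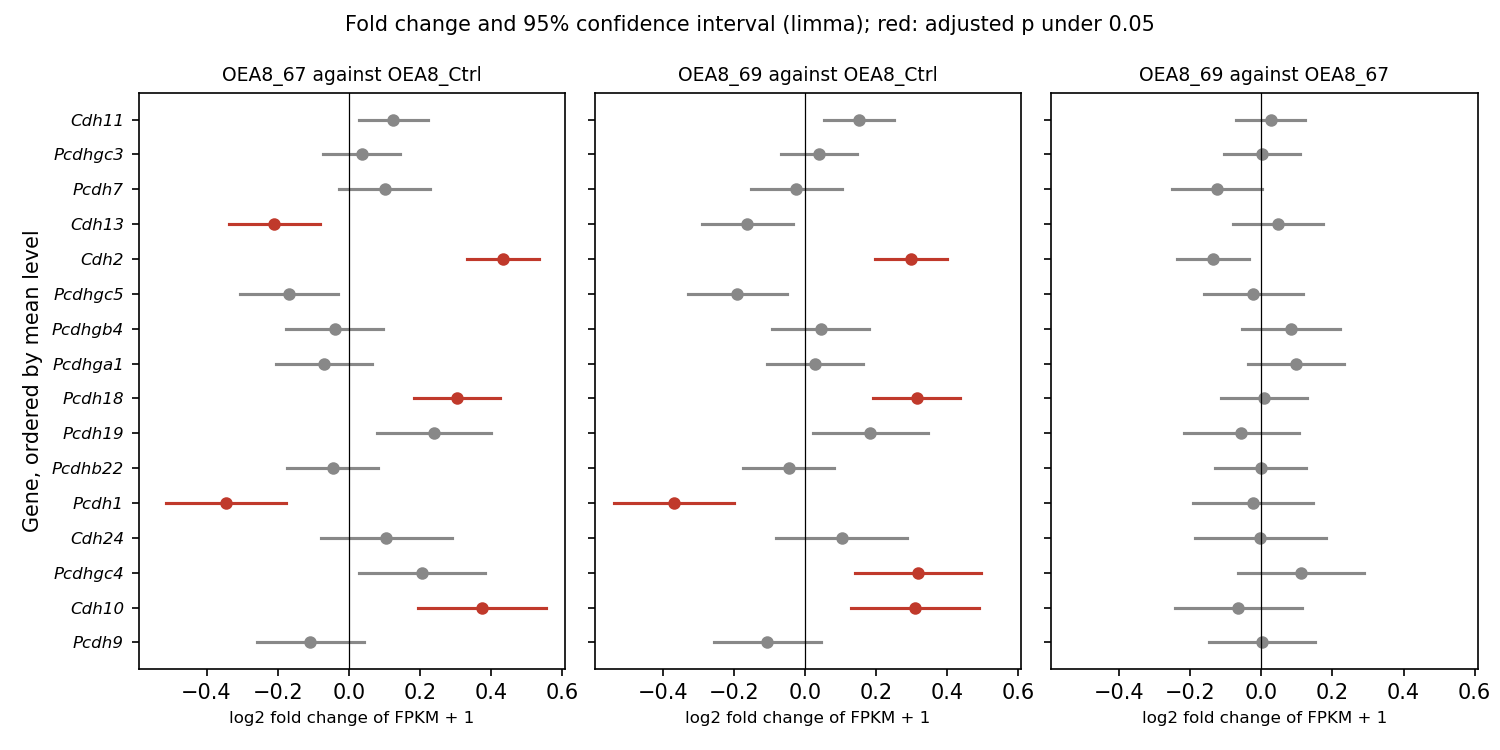
Log2 fold change of FPKM + 1 with its 95% confidence interval from limma for the 16 genes named by rule, ordered by mean level, in the 3 comparisons. Red marks an adjusted p under 0.05, and no gene is red between the mutants.

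Among genes below the minimum, a fit of all 18526 genes above 0 somewhere, which holds 84 of the 88, called Cdh6 and Pcdh12 beside genes described above. It called 4.81% of all genes in OEA8_67, 6.36% in OEA8_69 and 1.13% between the mutants. Cdh6, the type II cadherin known as K-cadherin for its expression in kidney, measured 0.33, 0.37 and 0.37 FPKM in OEA8_Ctrl, 0.60, 0.58 and 0.56 in OEA8_67 and 0.32, 0.41 and 0.36 in OEA8_69. OEA8_67 stood above the other groups, which overlapped. Against OEA8_Ctrl the log2 fold change was 0.22 ± 0.03 for OEA8_67 (limma adjusted p = 0.00683) and 0.01 ± 0.03 for OEA8_69 (adjusted p = 0.961). From OEA8_67 to OEA8_69 it was -0.21 ± 0.03 (limma adjusted p = 0.0226). With each library left out in turn, the OEA8_67 call was kept 9 of 9 times and the call between the mutants 4 of 9 times. Cdh6 was singled out after its values were seen.

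Since Cdh6 differed between the mutants in that fit, the 250 bases before a RefSeq transcript start of it are shown with the same marks. This window, chr15:13173676-13173925 on the minus strand, lies inside the annotated Cdh6 span of chr15:13028699-13176407, not upstream of the whole gene.
Cdh6: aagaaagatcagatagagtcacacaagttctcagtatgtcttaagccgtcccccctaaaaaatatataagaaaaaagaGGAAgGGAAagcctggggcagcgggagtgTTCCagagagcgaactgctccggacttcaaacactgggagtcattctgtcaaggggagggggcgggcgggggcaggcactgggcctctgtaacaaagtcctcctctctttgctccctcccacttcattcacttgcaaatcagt
The window held 3 ETS cores, with first bases at -172, -167 and -143, and no E-box of those letters.

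Pcdh12 is known as a protocadherin of endothelial cells. It measured 0.09, 0.10 and 0.08 FPKM in OEA8_Ctrl, 0.04, 0.01 and 0.02 in OEA8_67 and 0.00, 0.02 and 0.01 in OEA8_69. In the fit without a minimum it fell in both mutants (log2 fold change -0.09 ± 0.02, limma adjusted p = 0.0216, and -0.11 ± 0.02, adjusted p = 0.00669), at levels where values rounded to 2 decimals are coarse. The OEA8_67 call was kept in 5 of 9 fits with a library left out and ended when replicate 1 or 2 of OEA8_Ctrl, or 2 or 3 of OEA8_67, was left out. The excluded Cdh5, VE-cadherin of endothelial junctions, was 11.98, 11.09 and 10.92 FPKM in OEA8_Ctrl, 0.78, 0.88 and 0.73 in OEA8_67 and 0.24, 0.47 and 0.49 in OEA8_69. Of 9 endothelial markers, 2 reached 1 FPKM (Cdh5 and Flt1). Summed, the 9 ranged from 17.4 to 19.7 FPKM in OEA8_Ctrl, 4.0 to 4.59 in OEA8_67 and 3.28 to 3.84 in OEA8_69. Cdh5 itself was the largest part of the OEA8_Ctrl sum, followed by Flt1, which was also lower in every mutant library. Pecam1, Kdr, Tie1 and Emcn, all under 1 FPKM, were lower there too, whereas Vwf, Tek and Esam overlapped between the groups. The part of endothelial markers in the family's differences was not tested. The blood stem and progenitor markers summed to between 318 and 339 FPKM in OEA8_Ctrl, between 205 and 217 in OEA8_67 and between 217 and 227 in OEA8_69. Their members did not move together: Ly6a and Cd34 were lower in all mutant libraries than in the controls, and Hlf and Gata2 were higher. The fibroblast markers summed to between 3564 and 3722 FPKM in OEA8_Ctrl, lay below that in OEA8_67 (3327 to 3469) and overlapped it in OEA8_69 (3597 to 3671). Its members did not move together either. Dcn, Postn, Pdgfra and Lum were lower in every mutant library than in any control. Dcn lay between 259.75 and 269.30 FPKM in OEA8_Ctrl, 170.82 and 179.51 in OEA8_67 and 200.69 and 216.22 in OEA8_69. Thy1 and Col3a1 were lower than all controls in OEA8_67 only, and Fn1 in OEA8_69 only. Col1a1, Col1a2 and Col3a1 were higher in every OEA8_69 library than in any control. Col1a2 lay between 1399.90 and 1458.58 FPKM there, against 1308.02 to 1355.82 in OEA8_Ctrl. Pdgfrb overlapped between the groups. Neuronal markers, with 3 of 8 above 1 FPKM, summed to between 13.2 and 14.3, 15.4 and 16.6, and 18.7 and 20.6 FPKM in OEA8_Ctrl, OEA8_67 and OEA8_69. Stmn2 alone followed this order, while Map2 and Tubb3 overlapped between the groups. The part of these markers in the family's differences was not tested.

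Several catenins, which cadherin tails bind, were among the abundant genes. Ctnnb1 (beta-catenin) averaged 233 FPKM, Ctnnd1 (p120-catenin) 102 FPKM and Ctnna1 (alpha-catenin) 97.0 FPKM. Of the 18 catenins and plaque proteins listed, 12 reached 0.5 FPKM and were tested, and the others, Ctnna2 and Ctnna3 among them, were not. Of the 12, 0 were called in limma in OEA8_67, OEA8_69 or between the mutants, where 7.88%, 9.79% and 3.16% of all genes were, so the count is close to the background. Their median log2 fold change was 0.0770 in OEA8_67 and 0.0206 in OEA8_69, against 0.0176 and 0.0212 over all genes.

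Of 5 tested genes of the wider cadherin superfamily, 1 was called in OEA8_67 and 2 in OEA8_69 (7.88% and 9.79% of all genes were). Clstn1 (calsyntenin-1, a cargo adaptor of kinesin) fell in both mutants. It was 45.9 ± 1.02 FPKM in OEA8_Ctrl, 39.6 ± 0.50 in OEA8_67 (log2 fold change -0.21, limma adjusted p = 0.00827) and 39.4 ± 1.29 in OEA8_69 (-0.21, adjusted p = 0.00514), and the calls held with each library left out. Cdhr1, known as a photoreceptor cadherin, rose in OEA8_69, from 0.40 FPKM in each control library to 0.713 ± 0.0416 FPKM (0.29, adjusted p = 0.0405), but the call was lost without 7 of the 9 libraries in turn, all but replicates 1 and 3 of OEA8_67 (adjusted p up to 0.121).

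Among 8 tested repressors of cadherin transcription, 0 were called in OEA8_67, where 7.88% of all genes were, and 2 rose in OEA8_69, where 4.55% of all genes did. The median log2 fold change of the 8 was 0.0304 in OEA8_67 and -0.0085 in OEA8_69. Snai1 (Snail) went from 66.2 ± 4.77 to 75.8 ± 2.87 FPKM (log2 fold change 0.19, limma adjusted p = 0.0422), and Tcf3 (the E2A gene) from 43.6 ± 1.64 to 49.0 ± 1.15 FPKM (0.17, adjusted p = 0.0285). Both calls were lost without any single OEA8_69 replicate and without replicate 1 or 2 of OEA8_Ctrl, and that of Snai1 also without any OEA8_67 replicate (adjusted p from 0.0501 to 0.109 for Tcf3 and from 0.0546 to 0.148 for Snai1). The 2-group model ended both calls as well (adjusted p = 0.0684 for Tcf3 and 0.0859 for Snai1). Twist1 (53.5 FPKM) and Zeb1 (19.3 FPKM) were not called. Of 7 tested proteases that shed or process cadherins, such as Adam10, 0 were called in OEA8_67, OEA8_69 or between the mutants. Of all genes 7.88%, 9.79% and 3.16% were called, so the count is close to the background.

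Of 10 regulators of the protocadherin clusters, 2 rose in OEA8_67, where 3.21% of all genes did. In OEA8_69 and between the mutants 0 were called in limma, where 9.79% and 3.16% of all genes were. The median log2 fold change of the 10 was 0.125 in OEA8_67 and 0.0765 in OEA8_69. Smc3, a cohesin subunit, went from 28.3 ± 1.04 to 33.1 ± 1.07 FPKM (log2 fold change 0.22, limma adjusted p = 0.00973), a call lost without replicate 3 of OEA8_67 (adjusted p = 0.0525). Smc3 passed between the mutants, with OEA8_69 lower, without replicate 2 or 3 of OEA8_Ctrl (adjusted p = 0.0454 and 0.0298). It passed there as well in the 2-group model and at an equal sum of FPKM (limma adjusted p = 0.0284 and 0.0446). Ctcf, the insulator protein that binds the protocadherin promoters, went from 23.6 ± 1.72 to 27.2 ± 0.419 FPKM (0.20, adjusted p = 0.0378) and was called with all libraries and without replicate 2 of OEA8_Ctrl, but with no other library left out (adjusted p between 0.0564 and 0.124). The Ctcf call was also lost without a minimum level, under both rescalings and in the 2-group model (adjusted p between 0.0529 and 0.0865).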

How the data were processed

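The 9 RNA-seq libraries were grouped by their labels. RNA had been isolated with TRIzol and read on a BGISEQ-500 (DNBSEQ) sequencer. The mm10 build, Bowtie2 2.2.5 and HISAT2 2.0.4 appear in the processing notes of the submitters, and RSEM, without a version, in the study's methods. The authors deposited FPKM values for each gene, rounded to 2 decimals. Depth is unknown. FPKM is a relative measure, so that when abundant genes go up the values of other genes go down.

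The 12012 of 19240 genes averaging 0.5 FPKM or more were tested on log2(FPKM + 1) in a single limma 3.58.1 model (R 4.3.3, trended moderation, group as the only term) over all libraries. The procedure was tested on data simulated from each gene's mean and spread, with known changes added to OEA8_67. It recovered 43.6% of log2 changes of 0.25 and 85.2% of those of 0.5, with 3.53% of calls false. A gene that was not called may therefore still differ. The study's methods name no test specific to its bulk RNA-seq genes. Alternatives were a filter at 5 FPKM or none, a pseudocount of 0.1 or 0.5 FPKM, median-of-ratios scaling, robust moderation, the compared groups alone, the replicate number as a block and leaving out each library. Rescaling to an equal sum of FPKM, and leaving out libraries without a filter, were added after seeing the data. The members, lists, tests and naming rule were chosen with earlier results of these data known. Genes named were all called members, 7 well-known cadherins and protocadherins, up to 4 called genes of each partner list and 2 reference genes. The rule also named the 5 highest tested Cdh genes, non-clustered protocadherins and clustered protocadherins, with the 3 clusters pooled. Cdh6 and others outside the rule were chosen after their values were seen. Identifiers of 88 of 88 members matched the RefSeq table of GRCm38.p6. Promoter windows, shared exons and figures were made in Python 3.11.15 (numpy 2.4.6, pandas 2.3.3, matplotlib 3.10.9).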

Additional observations from a re-analysis of the deposited data

Results flagged for a closer look

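Cdh6 differed between the 2 mutants, with a log2 fold change of -0.21 in OEA8_69 against OEA8_67 (limma adjusted p = 0.0226) in the fit of all 18526 genes without a minimum level. It was higher in 3 of 3 OEA8_67 libraries than in any library of the other groups, and it was not tested at the minimum of 0.5 FPKM because its mean was 0.433 FPKM. With each library left out the adjusted p of this difference was between 0.0248 and 0.102.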

How the results depend on the processing

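No call of a named gene changed direction in any alternative. With a filter at 5 FPKM, which tested 14 members, 3 were called in OEA8_67 and 2 in OEA8_69, and the F test called 2. With only the 2 compared groups in the model, 4 were called in OEA8_67 and 3 in OEA8_69. Without a filter, 6 of 84 were called in OEA8_67, 6 in OEA8_69 and 1 between the mutants, where 4.81%, 6.36% and 1.13% of all genes were. For the other alternatives, the replicate block and the fits with a library left out among them, the share of all genes called was not worked out. Those counts therefore do not show whether the family differed from other genes. In OEA8_67, 4 were called at a pseudocount of 0.1 FPKM and at an equal sum of FPKM. With each library left out, the members called ranged from 2 to 6 in OEA8_67, 3 to 5 in OEA8_69, 0 to 0 between the mutants and 3 to 5 by the F test. Cdh13 lost its call at a pseudocount of 0.1 FPKM (adjusted p = 0.0505), without a filter (0.0829), at an equal sum of FPKM (0.103) and in the 2-group model (0.0857). In OEA8_69 the 2-group model ended the calls of Cdh10 (0.0756) and Pcdhgc4 (0.0577), and the fit without a filter that of Pcdhgc4 (0.0586). The cause was not tested. Members with at least 1 FPKM numbered 32, and 38 had at least 0.5 FPKM in every library.

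Replicate numbers gave no sign of pairing: of 9 same-numbered pairs 1 had a correlation of deviations over 0.1 (range -0.248 to 0.149). A differently numbered pair reached 0.28, and with 3 libraries in a group such values cannot show that pairing was absent. With the replicate block, members called were 5 in OEA8_67, 4 in OEA8_69, 0 between the mutants and 5 by the F test. The block ended the calls of Cdh10 (adjusted p = 0.0563), Cdhr1 (0.0604), Tcf3 (0.0576) and Snai1 (0.0608) in OEA8_69 and of Ctcf (0.0643) in OEA8_67, and gave Cdh13 a call in the F test (0.0379). Snai1 was also lost without a filter (0.0740) and at median-of-ratios scaling (0.0662), and Tcf3 at an equal sum of FPKM (0.0650). Depth is unknown, so low members, and single Pcdha and Pcdhg genes, rest on few or divided reads to an extent the values do not show.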
